A study of Mus musculus with 12 samples.

Results

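The genes described here are 30 genes of antigen presentation and costimulation, followed by RNA-seq in RAW264.7, a macrophage-like line of mouse origin. They were chosen by symbol: each of the 30 listed names matched the name given to a gene record in the deposited expression table, which held 53801 records in all. The list covers 6 genes of the class I molecule itself, 5 of peptide loading, the class I regulator Nlrc5, 5 of the immunoproteasome and its activator, 7 of class II presentation, 3 costimulators, 2 inhibitory ligands and the adhesion molecule Icam1. Cells received an siRNA against Synbindin, the TRAPP complex subunit encoded by Trappc4, or a control siRNA. They were collected after 4 h with 100 ng/ml lipopolysaccharide (LPS) or at 0 h, without LPS. The labels name no 4 h culture without LPS, so effects of LPS and of 4 h in culture cannot be told apart. The 4 groups were therefore silenced cells with LPS, control cells with LPS, silenced cells without LPS and control cells without LPS, with 3 libraries each. All came from the same line at passages 3 to 5 and all received an siRNA, so no group was untransfected. Nothing in the labels tells whether the 3 libraries of a group are independent transfections. The p-values therefore reflect only library-to-library spread, which may be technical.

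Class I molecules carry peptides from proteins made inside the cell. The proteasome cuts these proteins, the TAP transporter moves the peptides into the endoplasmic reticulum, tapasin and related proteins help load them, and the complex of a heavy chain with beta-2-microglobulin travels to the surface to be read by CD8 T cells. Class II molecules carry peptides from the endocytic route for CD4 T cells, and their genes depend on the regulator Ciita. A macrophage that senses LPS through Toll-like receptor 4 is known to add costimulators such as Cd80 and Cd40, and inhibitory ligands such as Cd274 (PD-L1), to its surface.

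Class I promoters are known to carry an upstream enhancer that binds NF-kB next to an element that binds interferon regulatory factors (IRF). The stretch before the start of 4 class I genes is shown because matches to both elements recur in 3 heavy chain genes and B2m holds another form of them. The IRF match has the same letters in these 3 genes, while the NF-kB match of H2-Q4 differs from that of H2-K1 and H2-D1. Each sequence is the 250 bases before the RefSeq gene start in build GRCm38.p6, read 5′ to 3′ on the gene's strand. The reference is of another mouse strain than RAW264.7, which is of BALB/c origin, so the bases in these cells may differ. H2-K1 is on the minus strand at chr17:34000348-34000597, H2-D1 on the plus strand at chr17:35262844-35263093, H2-Q4 on the plus strand at chr17:35379367-35379616 and B2m on the plus strand at chr2:122147437-122147686. The H2-D1 window lies inside the gene as GENCODE M21 draws it, which starts further upstream. Capitals mark matches to the NF-kB consensus, to the IRF pattern GAANNGAAA and to a longer form (GAAA, any 2 bases, GAAA), searched on both strands; the longer form was added after the B2m sequence was seen. The IRF match reads TTTCACTTC in these heavy chain genes because it lies on the other strand.
H2-K1: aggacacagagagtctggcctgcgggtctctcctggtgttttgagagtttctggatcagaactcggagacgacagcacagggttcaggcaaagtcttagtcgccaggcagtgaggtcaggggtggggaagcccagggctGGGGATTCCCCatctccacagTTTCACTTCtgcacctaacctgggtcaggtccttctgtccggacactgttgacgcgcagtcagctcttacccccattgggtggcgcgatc
H2-D1: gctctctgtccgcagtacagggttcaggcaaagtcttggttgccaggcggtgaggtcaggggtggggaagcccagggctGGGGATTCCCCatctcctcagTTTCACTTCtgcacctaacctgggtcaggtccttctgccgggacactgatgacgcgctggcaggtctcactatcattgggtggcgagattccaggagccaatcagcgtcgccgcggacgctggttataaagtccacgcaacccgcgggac
H2-Q4: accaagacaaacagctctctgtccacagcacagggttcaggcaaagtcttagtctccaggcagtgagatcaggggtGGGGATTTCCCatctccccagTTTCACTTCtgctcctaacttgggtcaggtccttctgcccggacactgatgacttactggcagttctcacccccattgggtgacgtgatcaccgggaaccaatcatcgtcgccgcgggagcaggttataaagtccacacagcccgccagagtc
B2m: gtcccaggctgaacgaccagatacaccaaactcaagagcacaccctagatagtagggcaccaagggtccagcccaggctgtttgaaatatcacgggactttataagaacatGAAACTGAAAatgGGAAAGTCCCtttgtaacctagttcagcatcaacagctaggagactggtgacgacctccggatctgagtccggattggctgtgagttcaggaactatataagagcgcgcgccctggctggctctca

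The first base of the IRF match lay 21 bases after that of the first NF-kB match in H2-K1, H2-D1 and H2-Q4. In H2-Q7 that distance was 20 bases. B2m held an NF-kB match, GGAAAGTCCC, and just before it a match to the longer IRF form, GAAACTGAAA, with no match to the shorter one. RefSeq entries were found for 22 of the 30 genes, 25 in number, and the 250 bases before each start were searched. The genes with none were Tap2, Tapbpl, Nlrc5, Cd74, H2-Ab1, Ciita, Cd40 and Cd86. Among the 25 entries, 5 (20%) held the IRF pattern, against 6.31% of the 32851 RefSeq windows of the same length, and 8 (32%) held the NF-kB consensus, against 7.25%. The longer IRF form was in 2 entries (8%), those of B2m and H2-T23, and in 2.98% of all windows. It was added after the B2m sequence was seen, so the B2m match was fixed beforehand and these shares cannot be compared. The 5 matches to the shorter form belonged to H2-K1 (with 2 starts), H2-D1, H2-Q4 and H2-Q7, whose genes are near copies of each other and so are not separate observations. The NF-kB matches belonged to these same entries and to B2m, H2-Aa and Pdcd1lg2, so the same limit holds for their share. Among the entries with no NF-kB match were those of Icam1, Cd274, Cd80, Tap1 and Psmb10. Only exact matches were counted, so lack of a match does not mean that no NF-kB site is present. A stretch that departs from the consensus at a single base, such as tggaaattcc in the Icam1 window, was not counted. A match is a description of letters and no record of binding.

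Trappc4, the silenced gene, read 5.86, 7.71 and 8.26 FPKM in silenced cells with LPS, against 13.8, 15.7 and 9.45 FPKM in control cells with LPS. Without LPS it read 4.35, 7.17 and 6.15 FPKM in silenced cells, against 14.1, 13.1 and 12.5 FPKM in control cells. FPKM counts fragments per kilobase of a transcript and scales them to the total of the library. The silenced libraries lay below the control libraries at both times. In limma its adjusted p was 0.120 with LPS and 0.0558 without, neither under the threshold of 0.05. Of 10 macrophage markers, 9 reached 1 FPKM in at least 3 libraries, against 0 of 7 for B cells and 0 of 8 for T and NK cells. Among 7 dendritic cell markers only Xcr1 did, and Cd209a was at 0 in every library. The libraries held 11672 to 12351 genes at 1 FPKM or more; their depth is unknown.

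Of the 30 genes, 23 passed the filter of 1 FPKM in at least 3 libraries and were tested with 13078 genes in all. The other 7 were H2-Aa, H2-Ab1, H2-Eb1, H2-DMb1 and Ciita of class II, the costimulator Cd86 and the inhibitory ligand Pdcd1lg2. H2-Q7 and Cd40 each reached 1 FPKM in only 1 library without LPS and in all 6 libraries with it, so they entered through the group in which they were high. Without LPS, the mean level in control cells ran downward per transcript length from B2m at 806 ± 5.88 FPKM (SD, n = 3) and H2-D1 at 129 ± 3.15 FPKM to Cd74 at 56.3 ± 13.9 FPKM. Lower levels were those of Nlrc5 at 4.50 ± 0.57 FPKM, Cd40 at 0.87 ± 0.18 FPKM and H2-Q7 at 0.38 ± 0.23 FPKM. The heavy chain genes differ between mouse strains and RAW264.7 is of BALB/c origin, while the reference is of another strain; the effect of this on their levels was not tested.

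**Figure D1:**
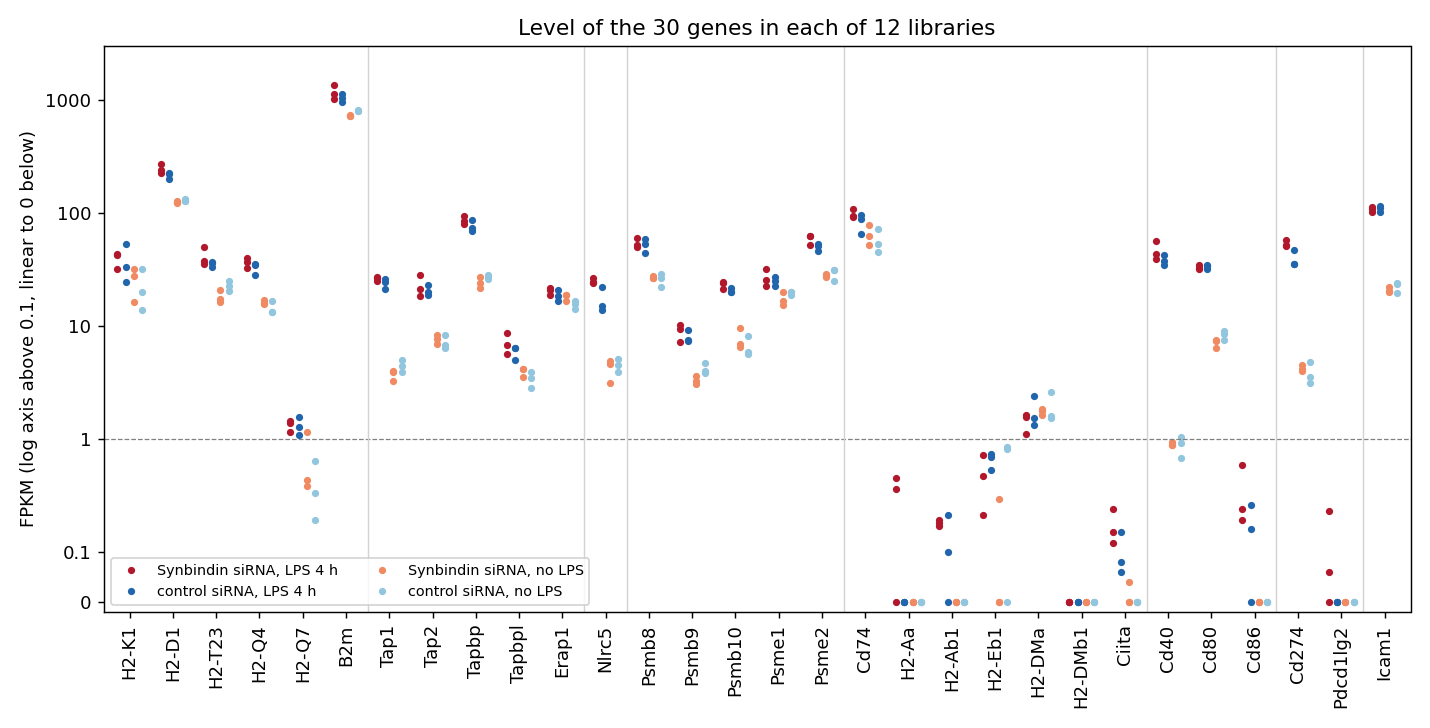
Level of the 30 genes in FPKM for each library in the 4 groups, on an axis that is logarithmic above 0.1 FPKM and linear below it; the dashed line marks 1 FPKM. B2m and H2-D1 stand at the top, and H2-DMb1 is at 0 in all 12 libraries.

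With LPS, 20 of the 23 tested genes were called higher in silenced cells and 19 in control cells, and none lower in either (limma, adjusted p under 0.05). The same rule called 13.0% of all tested genes higher and 35.5% lower in silenced cells, and 15.3% higher and 32.9% lower in control cells, which makes 48.5% and 48.2% in any direction. In both kinds of cells, 20 of the 23 genes had all libraries with LPS above all libraries without, where 16.0% of all genes did in silenced cells and 18.2% in control cells, and 0 had them below, where 41.9% and 38.0% did. The median change of the 23 genes was 1.11 in silenced cells and 0.80 in control cells on the log2(FPKM + 1) scale, against medians of -0.21 and -0.17 over all genes. These counts include H2-Q7 and Cd40, which passed the filter only through LPS. All 19 genes called in control cells were also called in silenced cells, and Psme1 was called in silenced cells alone, which is no test of a difference. H2-K1, Erap1 and H2-DMa were called in neither. Under median-ratio scaling the median of all genes moved up by 0.22 in silenced cells and 0.19 in control cells; 22 of the 23 genes were then called higher in both, and among all called genes the higher share was 51.1% and 51.8%, against 26.8% and 31.7% as fitted. Quantile normalization gave higher shares of 40.2% and 42.6%.

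**Figure D2:**
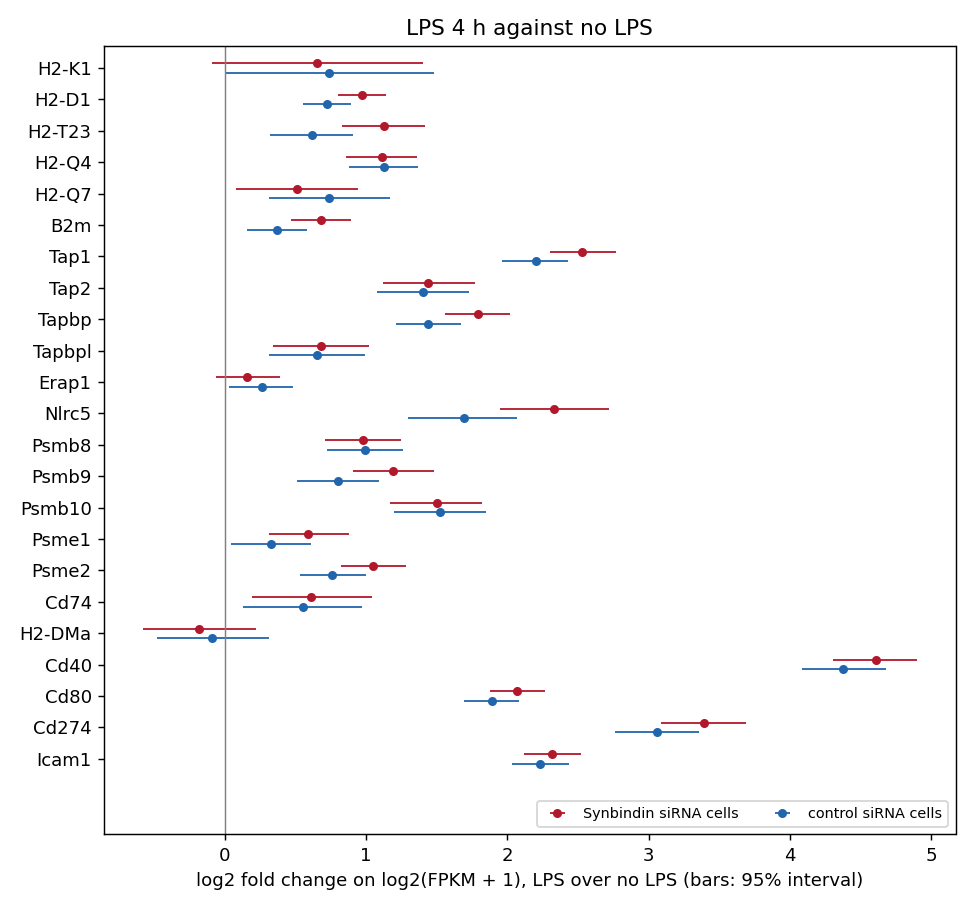
Log2 fold change of LPS over no LPS on log2(FPKM + 1) with unadjusted 95% intervals for the 23 tested genes, silenced cells drawn above control cells. Cd40 and Cd274 lie furthest right, and the intervals of H2-DMa hold 0.

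Among the genes of the class I molecule, H2-Q4, a nonclassical heavy chain of the Qa region, read 36.3, 32.2 and 39.8 FPKM in silenced cells with LPS, against 15.6, 15.8 and 16.9 FPKM in silenced cells without. In control cells it read 35.0, 28.3 and 34.2 FPKM with LPS, against 16.5, 13.2 and 13.3 FPKM without. The groups did not overlap, and the log2 change was 1.11 ± 0.11 in silenced cells and 1.13 ± 0.11 in control cells (SE, limma adjusted p = 1.09e-05 and 1.07e-05). H2-D1, a classical heavy chain, averaged 214 ± 14.3 FPKM in control cells with LPS and 129 ± 3.15 FPKM without, and rose in both kinds of cells. H2-T23, the nonclassical heavy chain Qa-1, averaged 40.8 ± 7.96 FPKM in silenced cells with LPS and 18.0 ± 2.38 FPKM without, and also rose in both. B2m, the light chain, averaged 1165 ± 166 FPKM in silenced cells with LPS and 723 ± 9.98 FPKM without, and 1041 ± 85.5 FPKM in control cells with LPS and 806 ± 5.88 FPKM without (SD, n = 3).

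H2-K1, the other classical heavy chain, was not called. It read 42.4, 43.3 and 31.5 FPKM in silenced cells with LPS, against 31.9, 27.3 and 16.2 FPKM in silenced cells without. H2-K1 in control cells read 24.5, 33.2 and 53.4 FPKM with LPS, against 19.9, 31.9 and 13.8 FPKM without. Its libraries spread widely, with a coefficient of variation of 40% in control cells with LPS and 42% in control cells without, where the median over the 23 tested genes was 11.4% and 12.8%. The change was 0.65 ± 0.34 in silenced cells and 0.74 ± 0.34 in control cells (limma adjusted p = 0.135 and 0.0923). It was called in control cells without control LPS replicate 1 (0.0431), without control no-LPS replicate 2 (0.0281) or under median-ratio scaling (0.0374). Under the alternatives its adjusted p in control cells ran between 0.0281 and 0.318. In silenced cells it was called under median-ratio scaling alone (0.0449). H2-Q7, the Qa-2 heavy chain, read 1.14, 1.37 and 1.42 FPKM in silenced cells with LPS, against 0.38, 0.43 and 1.14 FPKM without. In control cells H2-Q7 read 1.27, 1.07 and 1.55 FPKM with LPS, against 0.19, 0.33 and 0.63 FPKM without. Its change in control cells was 0.74 ± 0.20 (limma adjusted p = 0.00855, between 0.00339 and 0.0350 over the alternatives). In silenced cells 1 library without LPS reached the level of those with it, at 1.14 FPKM. Its call in silenced cells (adjusted p = 0.0484) was lost, at 0.0550 to 0.160, without any single library other than silenced no-LPS replicate 3 and control no-LPS replicates 1 and 3. It was also lost at a pseudocount of 0.1 (0.0680), without the filter (0.0767), under common sum scaling (0.0682) and with only the 6 libraries compared (0.0774). Of its 50-base stretches, 26.4% also occur in other genes, against 9.63% for H2-K1, 12.8% for H2-D1, 13.6% for H2-T23 and 21.8% for H2-Q4, and how reads with several matches were counted is not given, so the split between heavy chain genes is uncertain.

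Of the 5 peptide loading genes, 4 rose in each kind of cells. Tap1, one chain of the peptide transporter, read 25.1, 27.2 and 26.5 FPKM in silenced cells with LPS, against 3.93, 3.23 and 3.98 FPKM in silenced cells without. Tap1 in control cells read 21.2, 24.4 and 26.0 FPKM with LPS, against 4.43, 4.98 and 3.88 FPKM without. Tap1 thus stood 7.07-fold higher with LPS in silenced cells and 5.39-fold higher in control cells by the ratio of means (log2 change 2.53 ± 0.11 and 2.20 ± 0.11, limma adjusted p = 1.11e-08 and 4.11e-08). Tap2, the other chain, read 18.4, 21.3 and 28.0 FPKM in silenced cells with LPS, against 6.89, 7.57 and 8.20 FPKM without. In control cells Tap2 read 18.6, 19.9 and 23.1 FPKM with LPS, against 8.21, 6.39 and 6.81 FPKM without. Tapbp, or tapasin, which holds the empty class I molecule by the transporter, read 80.2, 84.9 and 93.4 FPKM in silenced cells with LPS, against 26.9, 24.1 and 21.5 FPKM without. In control cells Tapbp read 73.3, 69.0 and 85.8 FPKM with LPS, against 27.8, 28.4 and 25.7 FPKM without. With LPS and without, the libraries of both genes were fully separated in each kind of cells. Tapbpl, a relative of tapasin, rose by 0.68 in silenced cells and 0.65 in control cells on the log2 scale. Erap1, the aminopeptidase that trims peptides in the endoplasmic reticulum, had estimates of 0.16 in silenced cells and 0.26 in control cells. It was not called in either (limma adjusted p = 0.210 and 0.0571). Median-ratio scaling called it in both (0.00717 and 0.00410). In control cells it was also called without control LPS replicate 2 (0.0260) or under quantile normalization (0.0266).

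Nlrc5, the transactivator of class I genes, read 24.3, 24 and 26.4 FPKM in silenced cells with LPS, against 4.58, 4.85 and 3.14 FPKM in silenced cells without. Nlrc5 in control cells read 13.9, 14.9 and 22.2 FPKM with LPS, against 4.52, 5.06 and 3.92 FPKM without. Every library with LPS stood above every library without. The ratio of means was 5.94 in silenced cells and 3.78 in control cells (log2 change 2.33 ± 0.17 and 1.69 ± 0.17, limma adjusted p = 9.51e-07 and 1.28e-05).

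The immunoproteasome subunits Psmb8, Psmb9 and Psmb10 replace the constitutive subunits Psmb5, Psmb6 and Psmb7 in proteasomes that supply class I peptides, and Psme1 and Psme2 form the activator PA28. Psmb10 read 23.9, 21.3 and 24.3 FPKM in silenced cells with LPS, against 9.60, 6.93 and 6.45 FPKM without. Psmb10 in control cells read 19.9, 19.7 and 21.7 FPKM with LPS, against 8.10, 5.62 and 5.85 FPKM without. The ratio of means was 3.03 in silenced cells and 3.13 in control cells. Psmb8 read 51.7, 50.2 and 59.8 FPKM in silenced cells with LPS, against 26.2, 27.7 and 26.3 FPKM without, a ratio of means of 2.01. In control cells Psmb8 read 58.5, 43.9 and 52.7 FPKM with LPS, against 26.2, 28.6 and 21.8 FPKM without, a ratio of means of 2.02. Psmb9 read 7.18, 10.1 and 9.31 FPKM in silenced cells with LPS, against 3.02, 3.24 and 3.59 FPKM without. In control cells Psmb9 read 7.47, 7.31 and 9.11 FPKM with LPS, against 3.80, 4.69 and 3.95 FPKM without. All 3 subunits rose in both kinds of cells, with no overlap between libraries with and without LPS. Psme2 rose in both, by 1.05 in silenced cells and 0.76 in control cells on the log2 scale. Of the 50-base stretches of Psme2, 28.3% also occur in Psme2b or Gm7928, so its level is uncertain in the same way as those of the heavy chains. Psme1 was called in silenced cells (0.59 ± 0.13, limma adjusted p = 0.00287) and not in control cells (0.33 ± 0.13, adjusted p = 0.0594). In control cells it was called without silenced LPS replicate 1 (0.0467) or 2 (0.0316), control LPS replicate 2 (0.0490) or silenced no-LPS replicate 2 (0.0461). It was also called there with only the 6 libraries compared (0.0268) or under median-ratio scaling (0.00539).

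Within a library, the ratio of an immunoproteasome subunit to its constitutive counterpart does not depend on the scaling of that library. Psmb8 over Psmb5 was 0.737 ± 0.0893 in silenced cells with LPS and 0.402 ± 0.0588 without, and 0.702 ± 0.171 in control cells with LPS and 0.412 ± 0.0292 without (SD, n = 3). Psmb10 over Psmb7 was 0.395 ± 0.045 in silenced cells with LPS and 0.161 ± 0.0387 without, and 0.366 ± 0.0199 in control cells with LPS and 0.136 ± 0.0332 without. Psmb9 over Psmb6 was 0.0869 ± 0.0108 in silenced cells with LPS and 0.0424 ± 0.00406 without, and 0.0821 ± 0.0094 in control cells with LPS and 0.0661 ± 0.00777 without. Each ratio was thus higher with LPS in every library of each kind of cells. Without LPS, Psmb6 averaged 77.5 ± 1.43 FPKM in silenced cells and 62.8 ± 3.25 FPKM in control cells. The Tap1 and Psmb9 genes lie head to head on opposite strands of chromosome 17 with starts 226 bases apart in RefSeq, and their annotated exons overlap; the libraries kept strand, but the strand setting used in counting is not given.

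**Figure D3:**
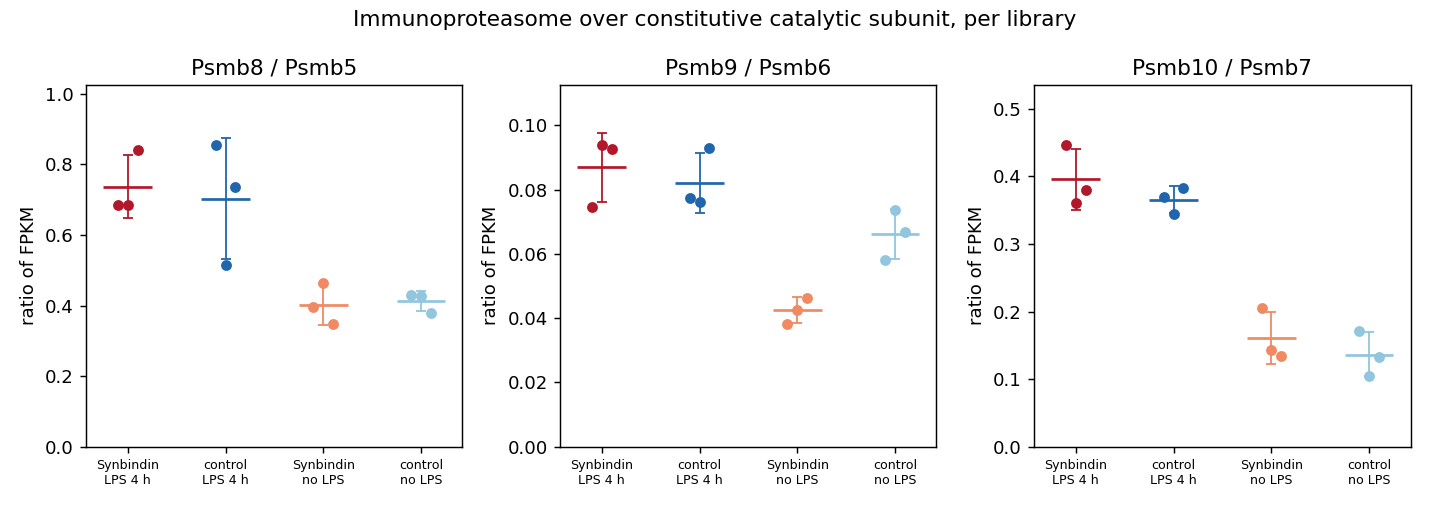
FPKM of an immunoproteasome subunit divided by that of its constitutive counterpart in each library, with the mean and SD of 3 libraries per group. All libraries with LPS lie above all libraries without LPS of the same siRNA.

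Of the 7 class II genes, only Cd74 and H2-DMa passed the filter and were tested. Cd74, the invariant chain that chaperones class II molecules, read 92.1, 93.8 and 107 FPKM in silenced cells with LPS, against 62.7, 52.2 and 77.5 FPKM without. Cd74 in control cells read 87.2, 64.8 and 95.1 FPKM with LPS, against 52.8, 44.5 and 71.7 FPKM without. The control libraries overlapped, since the lowest with LPS lay under the highest without. Its change was 0.61 ± 0.19 in silenced cells and 0.55 ± 0.19 in control cells (limma adjusted p = 0.0209 and 0.0348). The call in silenced cells was lost without silenced LPS replicate 3 (0.0719), silenced no-LPS replicate 1 (0.0516) or 2 (0.0856). In control cells it was lost without control LPS replicate 1 (0.0960) or 3 (0.121), or without control no-LPS replicate 1 (0.0886) or 2 (0.133), while quantile normalization (0.109 in silenced cells and 0.201 in control cells) and testing without the filter (0.0559 and 0.0845) ended both calls. Common sum scaling (0.0576) and a fit of only the 6 libraries compared (0.0640) ended the call in control cells.

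H2-DMa, a chain of the class II peptide editor, read 1.62, 1.09 and 1.57 FPKM in silenced cells with LPS, against 1.61, 1.83 and 1.77 FPKM without. In control cells H2-DMa read 2.38, 1.31 and 1.51 FPKM with LPS, against 2.58, 1.60 and 1.51 FPKM without. Its libraries with and without LPS overlapped in both kinds of cells, and the estimates were -0.18 ± 0.18 in silenced cells and -0.09 ± 0.18 in control cells (limma adjusted p = 0.443 and 0.727). Its partner H2-DMb1 was listed at 0 in all 12 libraries. Of the 50-base stretches of H2-DMb1, 22.7% also occur in H2-DMb2, and how reads with several matches were counted is not given. H2-Aa, an alpha chain, was listed at 0.45, 0.36 and 0 FPKM in silenced cells with LPS and at 0 in all other libraries. H2-Ab1, the matching beta chain, reached at most 0.21 FPKM, in a control library with LPS, and was listed at 0 in every library without LPS. H2-Eb1, another beta chain, lay between 0 and 0.84 FPKM. Ciita, the class II transactivator, lay at 0.15, 0.12 and 0.24 FPKM in silenced cells with LPS, against 0.06, 0.15 and 0.08 FPKM in control cells with LPS, and at most at 0.04 FPKM without. With no filter on low values, limma called Ciita higher with LPS in both kinds of cells, and H2-Ab1 and Cd86 in silenced cells. The B cell markers Cd79b and Ms4a1 were at 0 in every library, and the summed level of 7 B cell markers reached at most 0.529 FPKM. The summed level of 7 dendritic cell markers was 2.21 to 3.45 FPKM in silenced cells with LPS, 2.79 to 3.89 FPKM in control cells with LPS, 0.655 to 1.14 FPKM in silenced cells without and 0.683 to 2.11 FPKM in control cells without. In libraries of a whole culture of this line, few cells holding a transcript and little of it in each cell cannot be told apart.

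Cd40 had the largest LPS change of the 23 tested genes, but it passed the filter only through its libraries with LPS. Cd40, the receptor for CD40 ligand on T cells, read 38.8, 42.8 and 55.9 FPKM in silenced cells with LPS, against 0.87, 0.88 and 0.94 FPKM without. Cd40 in control cells read 37.4, 34.4 and 42.3 FPKM with LPS, against 1.03, 0.91 and 0.67 FPKM without. The ratio of means was 51.1 in silenced cells and 43.8 in control cells, with log2 changes of 4.61 ± 0.13 and 4.38 ± 0.13 (limma adjusted p = 5.09e-10 and 1.02e-09). Cd80, a ligand of CD28, read 32.5, 34.4 and 31.6 FPKM in silenced cells with LPS, against 6.39, 7.25 and 7.52 FPKM without. In control cells Cd80 read 34.4, 31.7 and 33.8 FPKM with LPS, against 7.42, 8.97 and 8.53 FPKM without. It stood 4.66-fold higher with LPS in silenced cells and 4.01-fold higher in control cells. Cd86, the other ligand of CD28, was listed at 0.19, 0.58 and 0.24 FPKM in silenced cells with LPS, at 0.16, 0 and 0.26 FPKM in control cells with LPS, and at 0 in all libraries without.

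Cd274, the inhibitory ligand PD-L1, read 51.2, 52.1 and 57.2 FPKM in silenced cells with LPS, against 4.18, 3.96 and 4.45 FPKM without. Cd274 in control cells read 35.5, 34.9 and 46.6 FPKM with LPS, against 3.54, 3.14 and 4.73 FPKM without. It stood 12.8-fold higher with LPS in silenced cells and 10.3-fold higher in control cells (log2 change 3.39 ± 0.13 and 3.06 ± 0.13, limma adjusted p = 6.56e-09 and 1.88e-08). Pdcd1lg2, the other PD-1 ligand, was listed at 0, 0.23 and 0.06 FPKM in silenced cells with LPS and at 0 in all other libraries. Icam1, which binds the integrin LFA-1 on T cells, read 113, 101 and 108 FPKM in silenced cells with LPS, against 21.9, 20.3 and 19.7 FPKM without. In control cells Icam1 read 110, 101 and 114 FPKM with LPS, against 24, 19.4 and 23.6 FPKM without. Libraries of each siRNA with LPS were all above those without it for Cd274 and Icam1.

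None of the 23 genes was called for silencing after LPS by limma (adjusted p under 0.05), where 0.719% of all tested genes were, 0.314% higher and 0.405% lower. At an unadjusted p under 0.05 there were 4, H2-D1, Nlrc5, Psme2 and Cd274, against 13% of all genes. The estimates were positive for 20 genes and negative for 3, with a median of 0.15, against a median of -0.03 and 44.6% positive over all genes. The 17 genes of the class I route, from heavy chains to the immunoproteasome, all had positive estimates, between 0.01 and 0.55; with 1 library left out at a time 14 to 17 were positive, the lowest without silenced LPS replicate 3, and 16 were under common sum scaling. In 3 of the 23 genes all silenced libraries stood above all control libraries, where 7.62% of all genes did so, and in 0 they stood below, where 11.3% did. Among all called genes, 43.6% were higher, against 60.7% under median-ratio scaling, 73.7% under quantile normalization and 35.4% under common sum scaling.

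The 3 separated genes were Nlrc5, Cd274 and H2-D1, described together after their values were seen. Nlrc5 averaged 24.9 ± 1.28 FPKM in silenced cells and 17.0 ± 4.56 FPKM in control cells (SD, n = 3), and its highest control library, at 22.2 FPKM, lay close under the silenced ones. Its estimate was 0.55 with a 95% interval of 0.17 to 0.93 and an adjusted p of 0.193 in limma, which ran between 0.0521 and 0.465 over the alternatives. Cd274 averaged 53.5 ± 3.21 FPKM in silenced cells and 39.0 ± 6.58 FPKM in control cells. Its estimate was 0.46, with an interval of 0.16 to 0.75 and an adjusted p of 0.165 in limma, between 0.0622 and 0.441 over the alternatives. For both genes the highest control library was replicate 3. H2-D1 read 227, 238 and 270 FPKM in silenced cells, against 219, 198 and 225 FPKM in control cells, an estimate of 0.19 with an interval of 0.02 to 0.36 (limma adjusted p = 0.309, between 0.231 and 0.642 over the alternatives).

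Other intervals were narrow for some genes and wide for others. Icam1 had an estimate of -0.02 with an interval of -0.22 to 0.19, and Cd80 one of -0.02 with an interval of -0.21 to 0.18. Cd40 had an estimate of 0.25 with an interval of -0.04 to 0.55. H2-K1 had the widest interval among the 23, -0.61 to 0.87. The intervals are not adjusted for the number of genes.

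**Figure D4:**
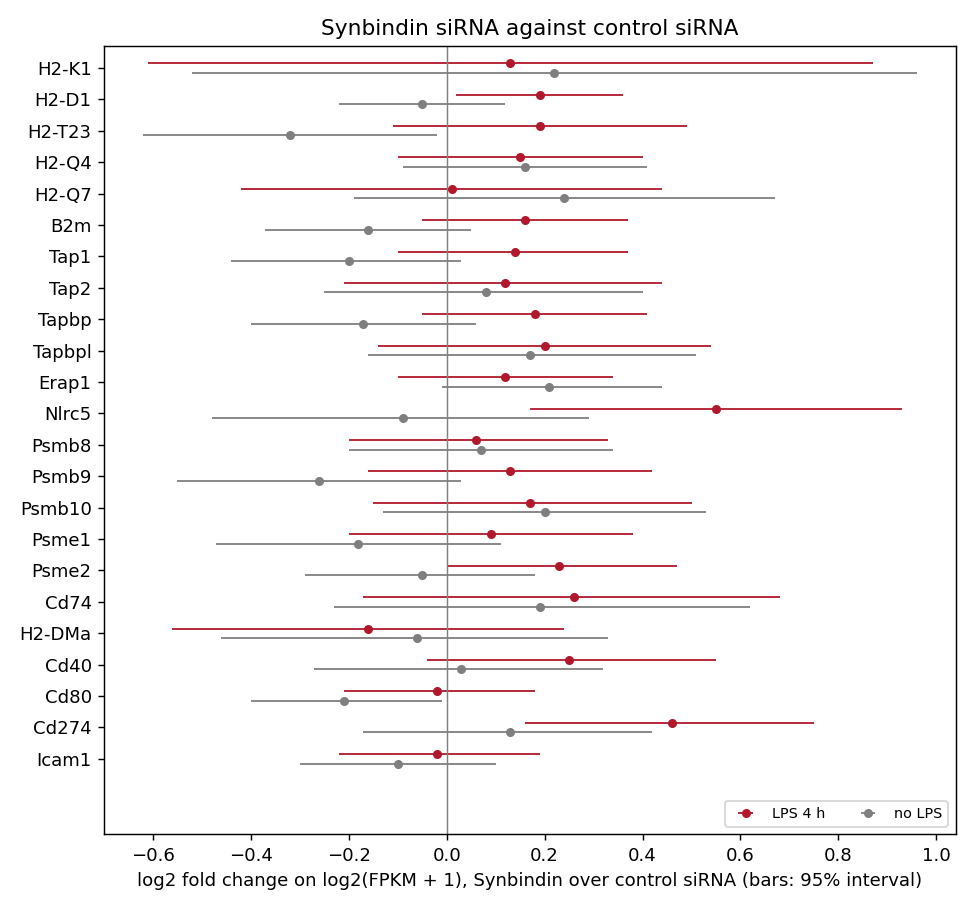
Log2 fold change of silenced over control cells on log2(FPKM + 1) with unadjusted 95% intervals for the 23 tested genes, with LPS drawn above without LPS. With LPS, 20 estimates are positive and none was called; Nlrc5 and Cd274 lie furthest right.

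Without LPS, none of the 23 genes was called for silencing by limma, where 0.214% of all genes were, 0.122% higher and 0.0918% lower, and 2 passed an unadjusted p under 0.05, H2-T23 and Cd80, against 12% of all genes. Estimates were positive for 11 genes and negative for 12, with a median of -0.05, against 51.5% positive and a median of 0.01 over all genes. In 0 genes did all silenced libraries stand above all control libraries, against 9.86% of all genes, and in 2 they stood below, against 8.35%. These were B2m and Psmb9, picked out after their values were seen. B2m read 732, 726 and 713 FPKM in silenced cells, against 813, 801 and 804 FPKM in control cells, an estimate of -0.16 with a 95% interval of -0.37 to 0.05 (limma adjusted p = 0.551, between 0.417 and 0.718 over the alternatives). Its libraries were tight within each group. Psmb9 had an estimate of -0.26 with an interval of -0.55 to 0.03 (limma adjusted p = 0.461, between 0.355 and 0.673 over the alternatives). H2-T23, likewise picked out after its values were seen, read 16.3, 20.7 and 17.1 FPKM in silenced cells, against 25.1, 22.6 and 20.4 FPKM in control cells, with overlapping groups and an interval of -0.62 to -0.02. Cd80 had an interval of -0.40 to -0.01, and Nlrc5 one of -0.48 to 0.29.

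**Figure D5:**
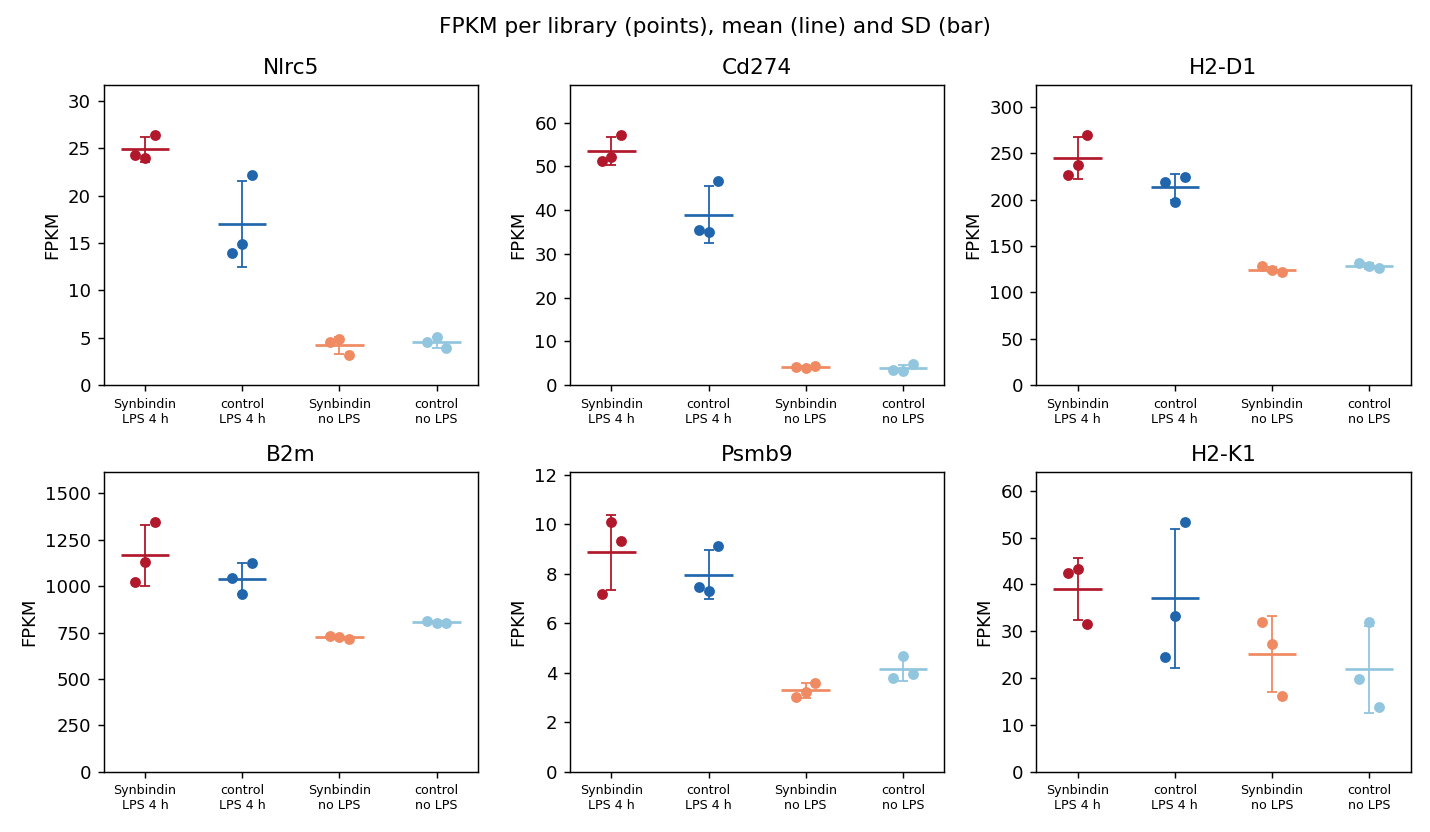
FPKM of Nlrc5, Cd274, H2-D1, B2m, Psmb9 and H2-K1 in each library, with the mean and SD of 3 libraries per group. With LPS, the silenced libraries of Nlrc5, Cd274 and H2-D1 lie above the control libraries; without LPS, those of B2m and Psmb9 lie below; H2-K1 overlaps throughout.

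The difference between the LPS effects in silenced and in control cells was called for 0 of the 23 genes by limma, where 0.0612% of all genes were called, 0.0382% higher and 0.0229% lower. At an unadjusted p under 0.05 there were 6, H2-D1, H2-T23, B2m, Tap1, Tapbp and Nlrc5, each with a positive estimate, against 11.3% of all genes. Nlrc5 had an estimate of 0.65 ± 0.25 (SE), with a 95% interval of 0.11 to 1.19 and an adjusted p of 0.370. H2-T23 had one of 0.51 ± 0.19, with an interval of 0.09 to 0.93 and an adjusted p of 0.366. B2m had one of 0.31, with an interval of 0.01 to 0.61. For Cd40 the interval ran from -0.19 to 0.64 and for Icam1 from -0.20 to 0.37.

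Lists of related genes were counted in the same fits, to be read against the shares of all genes called higher (13.0% in silenced cells and 15.3% in control cells) and lower (35.5% and 32.9%). Of the listed genes tested, 8 reached 1 FPKM in fewer than 3 libraries without LPS and so passed the filter through LPS. They were Mx1 and Mx2 of the interferon-stimulated genes, Socs1 and Ifnb1 of the regulators, and Icosl, Tnfsf4, Itgal and Tnfrsf14 of the costimulators. In LPS against no LPS, the 16 interferon-stimulated genes were called higher in both kinds of cells, with a median of 4.66 in silenced cells and 4.11 in control cells. Of 24 tested regulators of these promoters, 13 were called higher and 3 lower in each, among them Nfkb2 (2.81 in silenced cells and 2.69 in control cells), Irf1 (2.86 and 2.54) and Stat2 (2.73 and 2.35). Of 13 other genes, of class I and of protein folding in the endoplasmic reticulum, 6 were called higher and 2 lower in each. Among the higher ones were H2-T24 at 2.26 in silenced cells and 1.46 in control cells and H2-T22 at 1.95 and 1.46. Both lower ones, named after their values were seen, were folding genes, Canx (-0.59 and -0.69) and Uggt1 (-0.51 and -0.46). Hspa5, another folding gene, was among the higher ones. Of 19 other costimulators, adhesion genes and CD40 adaptors, 13 were called higher in each and 2 in silenced cells and 3 in control cells lower, among the higher ones the adaptor Traf1 (3.78 and 4.02), the surface molecule Cd83 (2.88 and 3.18) and Lgals9, or galectin-9 (3.16 and 2.10). The lower ones, named after their values were seen, were Vsir (-1.41 and -0.75) and Cd276 (-0.88 and -0.42) in both and Cd48 (-0.50) in control cells. Of 18 other proteasome genes, 11 in silenced cells and 10 in control cells were called higher and 1 in each lower, Psme4 at -0.42 and -0.30. Of these genes only Psmb5, Psmb6 and Psmb7 are the constitutive counterparts named above. The median of the 18 was smaller, 0.27 and 0.32, than the 1.05 and 0.80 of the 5 immunoproteasome and activator genes. Of 9 other class II and endosomal processing genes, 2 were called higher and 3 lower in each, with Ifi30, a lysosomal thiol reductase, at -0.93 and -0.92; these shares lie near those of all genes.

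Between silenced and control cells with LPS, no gene of these 6 lists was called by limma, where 0.719% of all tested genes were. At an unadjusted p under 0.05 there were 0 to 6 genes per list, against 13% of all genes. The 6 were among the 19 costimulators, adhesion genes and CD40 adaptors. Without LPS, only Oas3 was called, where 0.214% of all tested genes were. Oas3 was lower in silenced cells, at 15.8, 14.5 and 14.5 FPKM, against 28.1, 30.4 and 21.6 FPKM in control cells (limma adjusted p = 0.0282). Against a median of 0.01 and 51.5% positive estimates over all genes, the 16 interferon-stimulated genes had a median estimate of -0.53 and 15 negative estimates. Their median level was 3.81, 3.10 and 2.94 FPKM in the silenced libraries, against 6.63, 5.83 and 2.60 FPKM in the control libraries, of which replicate 3 lay below the silenced ones. H2-T24, picked out after its values were seen, read 11.8, 10.1 and 9.03 FPKM in silenced cells, against 21.6, 22.5 and 10.7 FPKM in control cells, with control replicate 3 again the lowest of its group. The part of this interferon level in the B2m, H2-T23 and Psmb9 values without LPS was not tested. In control replicate 3, B2m read 804 FPKM, against 813 and 801 FPKM in the other control libraries. H2-T23 read 20.4 FPKM there, the lowest of its group, against 25.1 and 22.6 FPKM. Psmb9 read 3.95 FPKM there, against 3.80 and 4.69 FPKM.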

How the data were processed

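The 12 RAW264.7 RNA-seq libraries fell into 4 groups of 3. The authors deposited FPKM values for 53801 Ensembl gene records in 1 table, and 0 columns belonged to other samples. HISAT2, StringTie and the build GRCm38 are named per the submitters' processing notes, without versions. Not given in the sources used here are the annotation release, how strand was set, and the handling of multiply matching reads. FPKM are not counts. Too few low values were whole multiples of one step (tolerance 0.01) for reads to be recovered, so depth is unknown. Genes with at least 1 FPKM in at least 3 libraries were tested, which left 13078. The model, fitted to all 12 libraries on log2(FPKM + 1) values by limma 3.58.1 (R 4.3.3), held a mean for each group and an intensity trend, leaving 8 residual degrees of freedom. A pseudocount of 1 understates the change of low genes. Tests were 2-sided, with Benjamini-Hochberg adjustment over all tested genes and a threshold of 0.05. The fit was tested on simulated data.

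The genes and the 6 further lists were chosen with earlier results of these data known. Values per library are given for genes called under silencing or in the interaction and for up to 3 genes per role with the largest LPS change in control cells; genes under the filter are given by their listed values, and others outside this rule are said to be so or are given by means or range. GENCODE M21, in which 53706 record IDs were found, gave coordinates; RefSeq gave promoters. Alternatives were a pseudocount of 0.1, no filter, a filter of 5 FPKM, 3 other scalings, a replicate block, no trend, only the 6 libraries compared and leaving out each library.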

Additional observations from a re-analysis of the deposited data

How the results depend on the processing

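For the genes described, 0 were called for silencing with or without LPS, or for the interaction, under each of the 9 alternative settings that could be fitted (8 for the interaction) and each of the 12 fits that left out a library. With LPS against none, 18 to 21 were called in control cells and 18 to 20 in silenced cells with a library left out. Of the 19 and 20 called, 18 each passed in every alternative in which they were tested, the exceptions being Cd74 in both and H2-Q7 in silenced cells.

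Counts over all genes moved more, and the cause was not tested. For silencing with LPS, 94 genes were called, against 38 under quantile normalization, 50 without the intensity trend, 0 with only the 6 libraries compared and 10 to 96 with a library left out; only without control LPS replicate 3, silenced no-LPS replicate 3 or control no-LPS replicate 3 did it stay within 1.5 times. Without LPS, 28 were called, against 48 with the replicate block, 10 without the trend, 6 with only the 6 libraries compared and 3 to 40 with a library left out, the lowest without control no-LPS replicate 1. The interaction gave 8, against 5 at a pseudocount of 0.1, 4 without the trend and 0 to 20 with a library left out, the highest without control LPS replicate 3. LPS calls ranged from 5586 to 6306 in control cells and from 5446 to 6403 in silenced cells. Same-numbered libraries of different groups had deviations correlated at -0.03 to 0.19, over 0.1 in 3 of 18 pairs. These 3 were all between libraries of replicate 3 (0.19, 0.14 and 0.13). Differently numbered libraries reached 0.13, over 0.1 in 1 of 36 pairs. The numbers were not taken as pairs in the main fit, and what the libraries of replicate 3 may share was not tested. The block changed no call among the genes described. The unknown depth and 3 libraries per group limit what could be detected.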
